A study of Mus musculus with 31 samples.

Results

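The Sfmbt2 intronic microRNA cluster is a run of 72 microRNA hairpins on the forward strand of mouse chromosome 2, all inside the gene Sfmbt2 (GRCm38, the build also called mm10; positions 10370440 to 10595253 in RefSeq). Its members were every mature microRNA of the deposited small RNA count table with a miRBase 21 precursor inside Sfmbt2, which gave 70 members out of 1907 microRNA identifiers. The rule goes by position and uses no measured level, but it was set with earlier results of these data known. The members carry the names miR-297 (6 members), miR-466 (25), miR-467 (10) and miR-669 (29). Only 33 of the 70 had a read in any of the 15 small RNA libraries, where 1225 of all 1907 identifiers did.

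A microRNA hairpin is cut out of a longer transcript by Drosha, trimmed by Dicer into a duplex, and loaded into Argonaute, where 1 strand of the duplex, the 5p or the 3p arm, usually persists. Bases 2 to 8 of the mature strand, the seed, do most of the target recognition. Sfmbt2 encodes a Polycomb-group protein, is imprinted and expressed from the paternal copy in early embryos and extraembryonic tissue, and its intronic cluster is a rodent-specific expansion known for a role in placental development.

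The study followed microRNA loss in mouse embryonic stem cells (mESCs; lines labelled DTCM23/49 XY) whose Dicer1 gene can be inactivated with 4-hydroxytamoxifen (4-OHT, 800 nM). Small RNA was sequenced at days 0, 4, 8, 10 and 12 of treatment, with 3 libraries a day that the labels number as biological replicates. All 15 carry the genotype label Dicer depleted, day 0 included, and no wild-type small RNA library was analysed here, so the effect of Dicer loss and that of days in culture cannot be told apart. A further 16 libraries held RNA labelled with 4-thiouridine (4sU, 200 uM, for 10 or 15 minutes) and the preexisting RNA left after its removal, from 2 Dicer-depleted and 2 wild-type (WT) cultures. The labels give 8 days of treatment for both genotypes. The agent that recombines Dicer1 is not given in the sources used here.

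Small RNA libraries held 11134202 to 16216368 reads in all, of which 51984 to 2366940 lay on microRNAs. Levels are RPM, reads scaled to 1e+06 of all reads of the library, assigned or not, because a scaling to microRNA reads cannot show a loss shared by nearly all microRNAs. A count of 3 reads, the upper limit that a count of 0 allows, is 0.185 to 0.269 RPM, and intervals of this kind cover counting error only. In every library 40.1 to 65.8% of reads fell below the mapping quality limit and were assigned to nothing. Dicer1, the targeted gene, had exonic levels in preexisting RNA of 1.20, 3.23, 3.37 and 2.95 TPM, a level per transcript length, in the 4 Dicer-depleted libraries, against 13.4, 17.6, 17.9 and 17.2 TPM in the 4 WT libraries (log2 difference -2.29 ± 0.25 SE, limma adjusted p = 0.0347). Leaving out any of the 4 cultures ended that call, with adjusted p from 0.181 to 0.388. All 9 stem cell marker genes averaged at least 1 TPM in preexisting RNA of both genotypes. Of the 8 trophoblast stem cell markers, 4 reached 1 TPM in Dicer-depleted cells and 3 in WT cells, and their summed level was 28.6 to 48.0 TPM in Dicer-depleted and 27.4 to 44.2 TPM in WT libraries. Cdx2, Elf5 and Krt7 stayed below 1 TPM in both, Hand1 and Gata3 in WT cells only, and Eomes in Dicer-depleted cells only. Of the 7 primitive endoderm markers, 2 reached 1 TPM in Dicer-depleted cells and 1 in WT cells. Their summed level was 3.40 to 19.0 TPM in Dicer-depleted and 3.31 to 8.66 TPM in WT libraries. The 5 microRNAs listed as fibroblast markers summed to 45.0 RPM in day 10 library 3, against 2.34 and 2.95 RPM in the other day 10 libraries, so results for day 10 are also given without that library. Their sums were higher still at day 0, with 354, 377 and 286 RPM, and at day 12 were 1.21, 0.539 and 3.95 RPM. Of the 6 fibroblast marker genes, 0 reached 1 TPM in preexisting RNA of Dicer-depleted cells and 1 in that of WT cells. The source of these reads was not tested.

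None of the 72 hairpins overlapped an exon of the 7 GENCODE transcripts of Sfmbt2. They lay in intron 11 of the longest transcript, which has 23 exons; the intron spans positions 10461473 to 10523944, which is 62472 bases, and the hairpins cover 51617 bases of it, from 10466663 to 10518279. Mature sequences of this kind are rich in CA or UG repeats. The names miR-466, miR-467 and miR-669 are also borne by 10 microRNAs with precursors outside Sfmbt2, and not 1 read fell on any of these relatives in the 15 libraries. Of them, 4 are shown to let the repeat character of the family be seen, 5′ to 3′ as RefSeq gives them (GRCm38.p6), with the seed in capitals.
miR-466i-3p: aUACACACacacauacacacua
miR-467f: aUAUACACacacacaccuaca
miR-467h: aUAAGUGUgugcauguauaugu
miR-669n: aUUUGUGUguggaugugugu
The seeds of these 4 differ from each other. Their hairpins lie on chromosomes 13 (miR-466i-3p), 11 (miR-467f), 9 (miR-467h) and 3 (miR-669n). With 0 reads a level of up to 0.185 to 0.269 RPM is allowed in each library by counting error alone. Any of their reads below the mapping quality limit would not be counted, so 0 reads set no firm limit on their level.

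Whether a member could be counted went with its number of copies. Of the 70 members, 53 had 1 locus under their identifier, called 1 copy here, and 29 of these had reads, 31826 in all. The other 17 had between 2 and 12 copies, and 4 of these had reads, 60 in all. MiR-466b-3p, with 8 copies, took 40 of those 60 reads, and miR-669d-5p, with 2 copies, took 17. MiR-669a-5p with 12 copies and miR-467a-3p with 10 copies had none; these 2 were picked for their copy number after the counts were seen. Reads that match several copies equally well get a low mapping quality, so a count of 0 for these 17 members says nothing firm about their level. Mature sequences of members with different names were not compared. The same limit may therefore hold for members with 1 copy and a count of 0. The part of the members in the reads below the limit was not tested.

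Members with 1 copy lay at both ends of the cluster and not in its middle. The first 15 kb of the cluster held 26 hairpins and 25 members with 1 copy, 11 of which had reads at day 0. The last stretch, from 39 to 52 kb, held 20 hairpins and 28 members with 1 copy, 15 of which had reads at day 0. Between 15 and 39 kb lay 26 hairpins and no member with 1 copy, so the middle of the cluster could not be measured member by member. The limits of these stretches were chosen after the levels were seen. The first stretch summed to 305, 360 and 310 RPM in the 3 day 0 libraries and the last stretch to 314, 322 and 245 RPM, so the 2 outer stretches had overlapping levels before treatment.

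**Figure D1:**
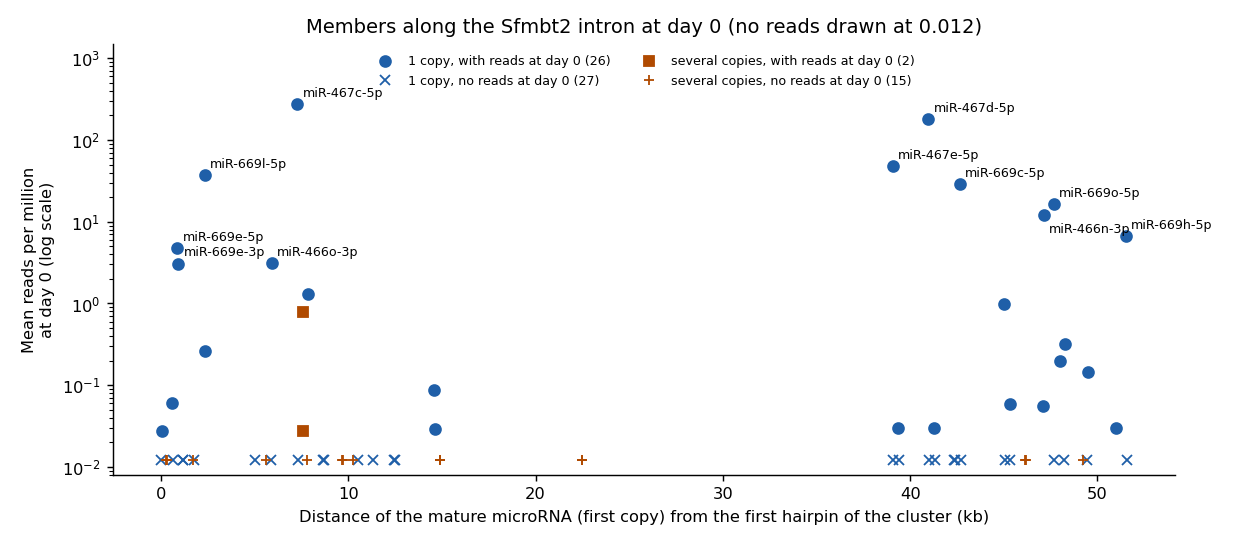
Mean level at day 0 (RPM of all reads, log scale, mean of 3 libraries) of each of the 70 members against its distance in kb from the first hairpin; circles and crosses are members with 1 copy, squares and plus signs members with several copies drawn at their first copy, and members without reads sit at 0.012. The 26 members with 1 copy and reads fall into an early and a late stretch, and only 2 members with several copies have reads.

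At day 0 the cluster summed to 620.1, 682 and 557 RPM in the 3 libraries, which is 0.331 ± 0.0177% of microRNA reads (SD, n = 3). Most of this came from a few members. MiR-467c-5p averaged 275 ± 25.9 RPM (SD, n = 3) and made up 44.4% of the cluster; it ranked 64 among the 1907 identifiers. MiR-467d-5p averaged 181 ± 28.2 RPM, or 29.1% of the cluster, at rank 79. The next levels were far lower, with miR-467e-5p at 47.6 ± 7.03, miR-669l-5p at 37.0 ± 6.10 and miR-669c-5p at 28.7 ± 2.87 RPM. In that order miR-467c-5p and miR-467d-5p did not overlap, while miR-467e-5p overlapped miR-669l-5p and miR-669l-5p overlapped miR-669c-5p across libraries. MiR-669o-5p averaged 16.4 ± 1.92, miR-466n-3p 12.2 ± 2.35, miR-669h-5p 6.67 ± 1.77 and miR-669e-5p 4.78 ± 0.983 RPM. MiR-466o-3p (3.15 ± 0.483 RPM) and miR-669e-3p (3.07 ± 0.307 RPM) were level with each other within their spread, and miR-669a-3-3p (1.31 ± 0.644 RPM) and miR-297b-5p (0.983 ± 0.104 RPM) closed the list of members above 0.9 RPM. The other 12 of the 25 highest members lay between 0.0299 and 0.777 RPM, with miR-466b-3p at the top of that range, and 42 members had no read at day 0.

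The 5p arm carried nearly all counted reads of the cluster. The 32 members named 5p had 30802 reads over the 15 libraries, the 34 named 3p had 1070 and the 4 without an arm name had 14. Of 23 hairpins with 1 copy and both arms in the table, 11 had at least 20 reads at day 0, and 9 of these had most reads on the 5p arm. Mir467c had 9485 reads on 5p and 0 on 3p, and Mir467d 6239 on 5p and 0 on 3p. The exceptions were 2 miR-466 hairpins. Mir466o had 0 reads on 5p and 109 on 3p, and Mir466n had 2 on 5p and 420 on 3p. Mir669e was the most balanced, with 166 reads on 5p and 106 on 3p, or 61.0% on 5p. These counts hold only reads that could be placed with enough mapping quality. A count of 0 on 3p therefore sets no firm limit on the level of that arm. Whether low mapping quality removed more reads of 3p than of 5p was not tested.

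The cluster was lower at each later day of treatment. Its summed level was 620 ± 62.6 RPM at day 0, 228 ± 21.9 RPM at day 4, 10.3 ± 3.25 RPM at day 8, 2.71 ± 0.319 RPM at day 10 and 1.36 ± 0.171 RPM at day 12 (SD, n = 3 each). These means are 36.8%, 1.66%, 0.438% and 0.220% of day 0. By library the sums were 208, 251 and 224 RPM at day 4, 12.9, 6.68 and 11.3 RPM at day 8, 3.07, 2.60 and 2.47 RPM at day 10, and 1.21, 1.55 and 1.32 RPM at day 12. No 2 days overlapped. In such bulk samples, fewer cells with these microRNAs and less microRNA per cell cannot be told apart. Without day 10 library 3 the cluster kept 0.457% at day 10. The cluster's share of microRNA reads moved the same way, with means of 0.331%, 0.204%, 0.0918%, 0.0468% and 0.0328% at days 0, 4, 8, 10 and 12.

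Fewer members were seen as the level dropped. Members with a read in any library of the day numbered 28, 27, 14, 11 and 10 at days 0, 4, 8, 10 and 12. Members with a read in all 3 libraries of the day numbered 19, 17, 6, 4 and 2. At day 12 the 58 reads of the cluster in 3 libraries included 25 of miR-467d-5p and 16 of miR-467c-5p. The members seen at day 12 with the highest means were miR-467d-5p (0.585 RPM), miR-467c-5p (0.372), miR-669c-5p (0.0926), miR-669o-5p (0.0702) and miR-467e-5p (0.0680), all of them also among the 6 highest at day 0. The means of miR-669c-5p, miR-669o-5p and miR-467e-5p rest on 4, 3 and 3 reads. MiR-669l-5p and miR-466n-3p had 2 reads each, so this order is not firm. A count of members with reads moves with level and depth, and at least 5 reads in the day were reached by 18, 15, 9, 5 and 2 members.

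The cluster kept less than the sum of all other microRNAs. All 1837 identifiers outside it kept 60.0% of their summed RPM at day 4 and 2.39% at day 12, against 36.8% and 0.220% for the cluster. Among groups abundant in stem cells, the miR-290 cluster (18 identifiers), the main microRNA cluster of mESCs, kept 60.0% at day 4 and 0.389% at day 12. The miR-302 cluster (10) kept 15.5% and 0.385%. The imprinted Dlk1-Dio3 cluster (115) kept 34.1% and 0.142%, close to the Sfmbt2 cluster at day 4; at day 12 its library 2 stood apart, with 37.5 RPM against 14.7 and 11.4 RPM. These sums were not tested, and the sum outside the cluster is set by its most abundant microRNAs. Between microRNAs tested singly, the median kept at day 4 was 36.5% for the 13 members that passed the filter on low counts and 52.5% for all 476 microRNAs that did. At day 12 these medians were 0.135% and 0.480%.

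**Figure D2:**
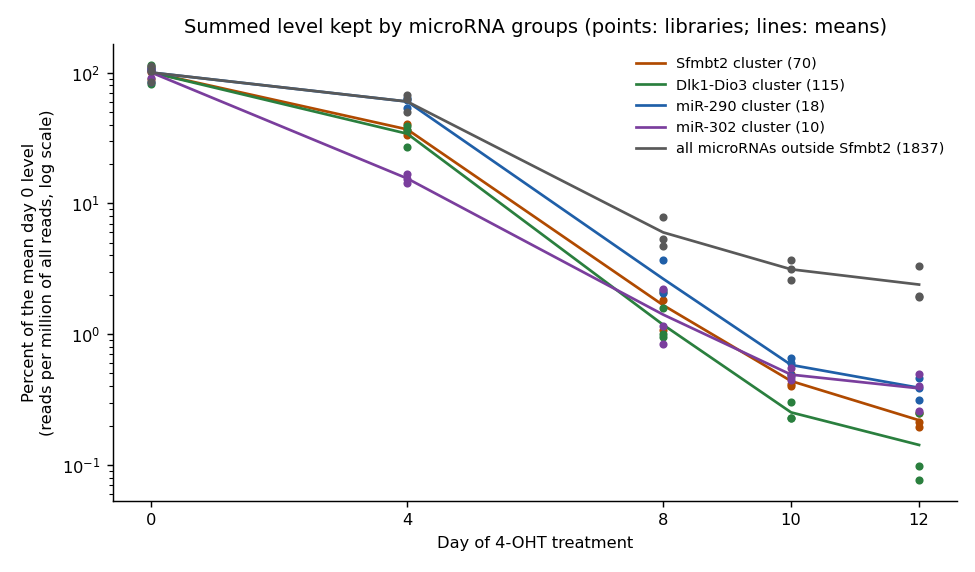
Summed RPM as a percent of its mean at day 0 (log scale) against the day of 4-OHT treatment, for the Sfmbt2 cluster, 3 other microRNA clusters and all identifiers outside Sfmbt2; points are the 3 libraries of a day and lines join the means. The Sfmbt2 cluster lies near the Dlk1-Dio3 cluster at day 4 and ends at 0.220%, between Dlk1-Dio3 (0.142%) and the miR-302 (0.385%) and miR-290 (0.389%) clusters.

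At day 4 the miR-466 members summed to 3.82, 5.17 and 4.27 RPM, against 18.7, 18.2 and 13.9 RPM at day 0, so that 26.0% was kept. The miR-467 members kept 36.7% and the miR-669 members 39.02%. The 5p members kept 36.8% and the 3p members 34.5%. Leaving out each library in turn, these ranges overlapped: 34.3 to 38.8% for miR-467 and 36.5 to 40.5% for miR-669, and 34.9 to 38.8% for 5p and 32.0 to 36.0% for 3p. The first stretch of the intron kept 28.5% and the last stretch 45.8%, and their most abundant members, miR-467c-5p in the first and miR-467d-5p in the last, kept 27.3% and 44.1%. These shares were not tested. At day 12 the miR-467 group kept 0.204% and the miR-669 group 0.241%, while the 0.583% of the miR-466 group rests on 4 reads. Without miR-467c-5p and miR-467d-5p, a set chosen after their levels were seen, the other 68 members kept 44.5% at day 4 and 0.246% at day 12.

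Day 4 against day 0 was the first comparison made member by member. MicroRNAs were fitted together in edgeR's quasi-likelihood model with all reads as library size, and p-values were adjusted by Benjamini and Hochberg over the 476 that passed the filter. It was passed by 13 members, all through days on which they were high, so counts over them are a description and say nothing of the 57 others. In that fit 9 of the 13 fell and 0 rose at day 4, where 56.9% of all 476 microRNAs fell and 2.73% rose. The median log2 change was -1.48 over the 13 and -0.93 over the 476. With TMM factors, which compare microRNAs with one another, the median over the 476 was -0.17 and 6 of the 13 fell, where 35.3% of the 476 did.

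The members that fell furthest at day 4 were 2 3p strands and the most abundant strand. MiR-466o-3p had 0.863, 0.496 and 0.599 RPM at day 4, against 3.58, 3.23 and 2.63 RPM at day 0, a log2 change of -2.24 ± 0.43 (SE; adjusted p = 1.27e-05). MiR-466n-3p had 2.77, 3.54 and 2.32 RPM at day 4, against 13.2, 13.8 and 9.46 RPM at day 0 (log2 change -2.07 ± 0.34, adjusted p = 1.06e-06). MiR-467c-5p had 71.0, 86.2 and 68.1 RPM at day 4, against 253, 304 and 269 RPM at day 0 (log2 change -1.87 ± 0.33, adjusted p = 3.16e-06). For all 3 the days did not overlap. How often days overlapped among microRNAs outside the cluster was not counted, so a lack of overlap does not set members apart. MiR-669e-5p (-1.67), miR-669c-5p (-1.61), miR-669l-5p (-1.61), miR-467d-5p (-1.18) and miR-669o-5p (-1.03) fell too, by these log2 changes, with adjusted p between 2.15e-05 and 0.00778 and no overlap between days. Relative to other microRNAs, with TMM factors, miR-467d-5p (adjusted p = 0.0923), miR-669o-5p (0.386) and miR-297b-5p (0.244) were no longer called, and the other 6 were. MiR-297b-5p had 0.0617, 0.566 and 0.449 RPM at day 4, against 1.08, 0.988 and 0.876 RPM at day 0 (log2 change -1.48 ± 0.56, adjusted p = 0.0218). That call was lost without day 4 library 1 (adjusted p = 0.211), day 0 library 1 (0.0843) or day 0 library 2 (0.0618).

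Of the 13, 4 did not pass at day 4. MiR-467e-5p had 27.1, 30.7 and 31.4 RPM at day 4, against 52.6, 50.6 and 39.5 RPM at day 0 (log2 change -0.68 ± 0.32, adjusted p = 0.0612). MiR-669h-5p had 4.50, 3.96 and 3.82 RPM at day 4, against 8.67, 5.30 and 6.05 RPM at day 0 (log2 change -0.70 ± 0.33, adjusted p = 0.06). For both every day 4 library lay below every day 0 library, and with TMM factors their log2 changes were 0.08 and 0.06. MiR-669a-3-3p had 0.617, 0.566 and 0.823 RPM at day 4, against 1.42, 1.89 and 0.613 RPM at day 0, with overlap (log2 change -0.96 ± 0.48, adjusted p = 0.08). MiR-669e-3p had 2.71, 2.41 and 2.02 RPM at day 4, against 2.83, 2.96 and 3.42 RPM at day 0 (log2 change -0.36 ± 0.37, adjusted p = 0.42; log2 change 0.39 with TMM factors). It kept 77.5% of its day 0 mean, the highest share of the 13. Leaving out day 0 library 3 brought miR-467e-5p (adjusted p = 0.0499) and miR-669a-3-3p (adjusted p = 0.0339) past the threshold. With only the libraries of days 0 and 4 in the fit, 12 members were called lower, among them miR-467e-5p (adjusted p = 0.00203), miR-669h-5p (0.00792) and miR-669a-3-3p (0.0382), and DESeq2 with all reads called miR-467e-5p (0.0354). The share of all microRNAs called in these fits was not counted. MiR-669e-3p passed in none of the settings tried (adjusted p from 0.208 to 0.671).

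**Figure D3:**
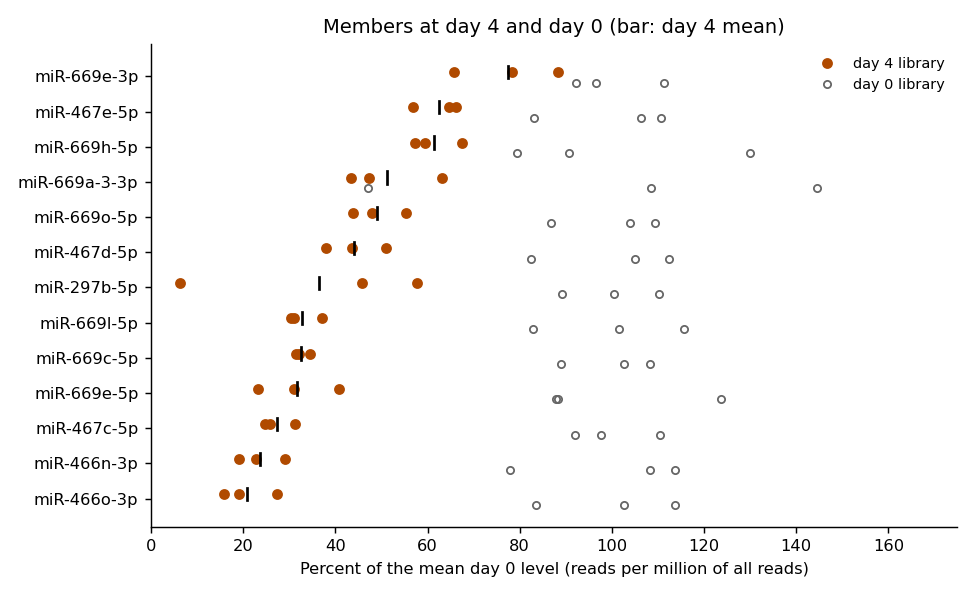
Level of each of the 13 members at day 4 (filled points, 3 libraries, bar at their mean) and at day 0 (open points, 3 libraries), as a percent of the member's mean RPM at day 0. Means at day 4 run from 20.7% for miR-466o-3p to 77.5% for miR-669e-3p, and of the 13 only miR-669a-3-3p overlaps between the days. Overlap was not counted for microRNAs outside the cluster, so its absence does not set the members apart.

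Ratios within a library need no scaling. Those given here were chosen after the levels were seen, so they are a description. Exact permutation tests were run on 7 ratios, but with 3 libraries a day their p cannot fall below 0.1. They therefore cannot decide whether a ratio moved. The ratio of miR-669e-3p to miR-669e-5p, the 2 strands of 1 hairpin, was 2.44, 1.62 and 1.04 at day 4, against 0.479, 0.702 and 0.813 at day 0, a mean difference of 1.30 on the log2 scale. The counts behind it were 105 reads of 3p and 65 of 5p at day 4, against 106 and 166 at day 0. The ratio of miR-467e-5p to miR-467c-5p was 0.381, 0.357 and 0.462 at day 4, against 0.208, 0.166 and 0.147 at day 0, a log2 difference of 1.21. The ratio of miR-467d-5p to miR-467c-5p was 0.964, 1.07 and 1.16 at day 4, against 0.750, 0.669 and 0.555 at day 0, a log2 difference of 0.70. In these 3 ratios no library of 1 day overlapped the other day. The same held for the ratios of miR-669o-5p and miR-669h-5p to miR-467c-5p, with log2 differences of 0.85 and 1.20. The ratios of miR-669l-5p and miR-669c-5p to miR-467c-5p overlapped between the days.

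The step between days 4 and 8 was the largest as a fold change of the summed level, while in RPM the step from day 0 to day 4 was larger. Day 8 against day 4, all 13 members tested fell and 0 rose, where 91.8% of the 476 fell and 1.05% rose; with TMM factors 1 of the 13 fell, where 12.8% of the 476 did. Day 8 against day 0, the 13 likewise fell, where 94.3% of the 476 fell and 1.89% rose. The members' share is thus near that of all microRNAs. MiR-467c-5p had 3.30, 1.78 and 2.58 RPM at day 8, against the 68.1 to 86.2 RPM of day 4 (log2 change -4.87 ± 0.39, adjusted p = 5.04e-17). MiR-467d-5p had 4.24, 2.45 and 5.59 RPM at day 8, against 68.4, 92.0 and 78.8 RPM at day 4 (log2 change -4.28 ± 0.38, adjusted p = 1.49e-15). MiR-467e-5p had 2.36, 0.742 and 1.55 RPM at day 8 and kept 3.26% of day 0. So the order of the 2 most abundant members had turned: miR-467c-5p was above miR-467d-5p in each of the 3 libraries at day 0 and below it in each of the 3 at day 8. MiR-669e-3p again kept the highest share of the 13, 4.79%, on 6 reads at day 8 against 106 at day 0; relative to other microRNAs, with TMM factors, its log2 change was 0.46 and not called. MiR-297b-5p and miR-669a-3-3p had no read from day 8 on, which puts them at least 13.1-fold and at least 17.4-fold below day 0 at day 8, taking 3 reads over the day's libraries as the limit. With TMM factors 4 of the 13 fell at day 8 against day 0, where 22.3% of the 476 did.

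**Figure D4:**
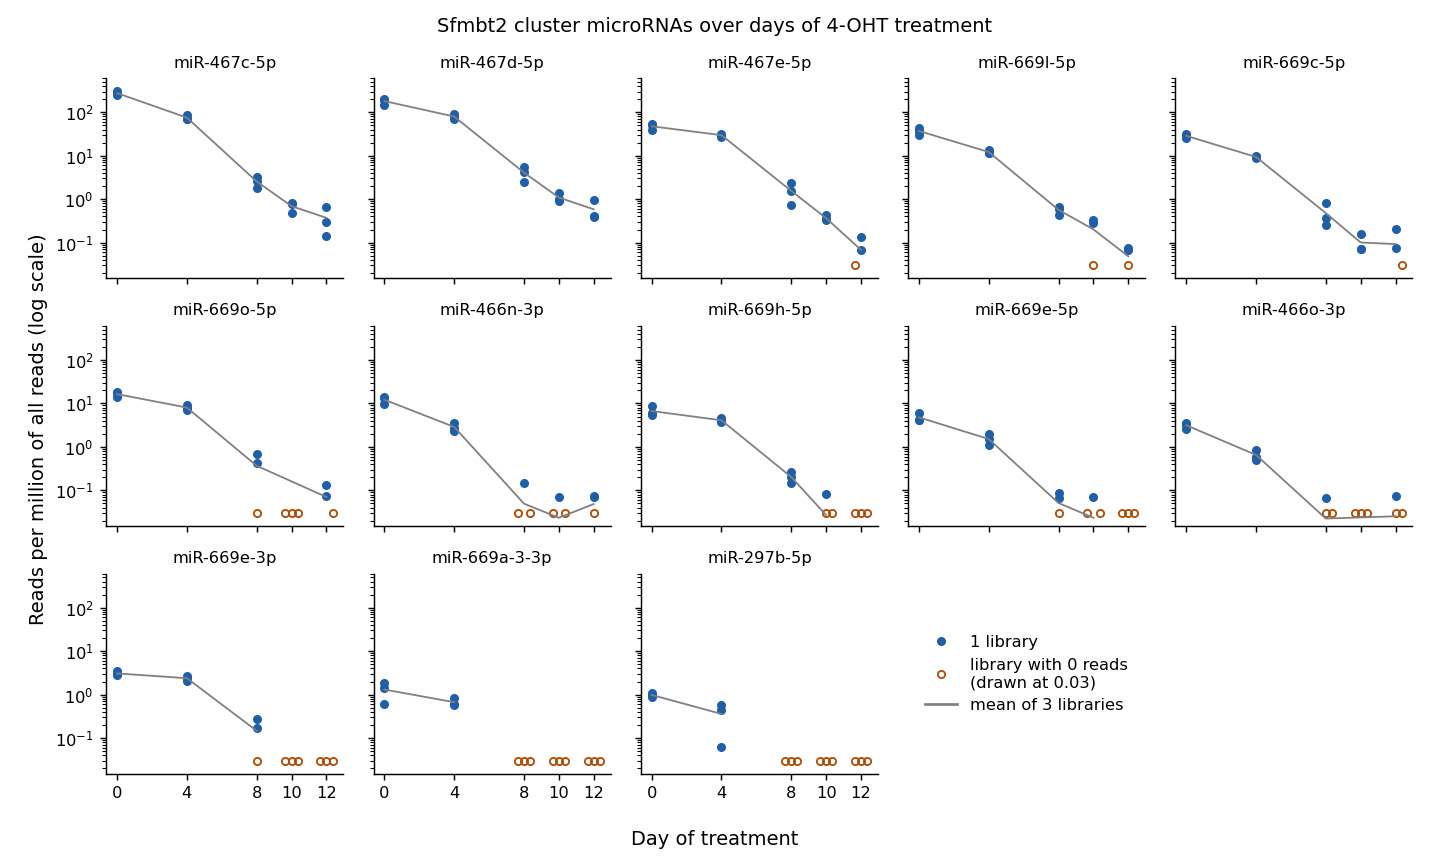
Level of the 13 members that passed the filter, in RPM of all reads (log scale), against the day of 4-OHT treatment; filled points are libraries, open points are libraries with 0 reads drawn at 0.03, and lines join the means of 3 libraries. MiR-467c-5p and miR-467d-5p keep reads in all libraries to day 12, while miR-297b-5p and miR-669a-3-3p have none from day 8.

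Fewer members passed in the steps after day 8. Day 10 against day 8, 6 of the 13 fell and 0 rose, where 41% of the 476 fell and 0.63% rose: miR-467c-5p, miR-467d-5p, miR-467e-5p, miR-669c-5p, miR-669e-3p and miR-669o-5p. With TMM factors 0 of the 13 fell at this step, 1 had an unadjusted p under 0.05, DESeq2 with its own size factors called 0 lower, and 11.1% of the 476 fell by TMM factors. With only the libraries of days 8 and 10 in the fit, 3 members fell. For DESeq2 and for the fit of those days alone, the share of all microRNAs called was not counted. MiR-467d-5p had 1.37, 0.912 and 0.987 RPM at day 10, against its 2.45 to 5.59 RPM at day 8 (log2 change -1.90 ± 0.40, adjusted p = 8.98e-05). MiR-669c-5p and miR-669e-3p lost their calls without day 10 library 3 (adjusted p = 0.0507 and 0.0714), without day 8 library 1 (0.149 and 0.166) and without day 10 library 2 (0.0564 and 0.0824), and miR-669e-3p also without day 10 library 1 (0.0636). Day 12 against day 10, 0 of the 13 passed in either direction by edgeR or by DESeq2, and 2.1% of the 476 fell and 0.21% rose. Of the 13, 1 had an unadjusted p under 0.05 (miR-467e-5p, log2 change -2.24 ± 0.82, edgeR adjusted p = 0.121). These fits did not pair libraries by number. With a replicate block in a fit of days 10 and 12 alone, 69 of 140 microRNAs were called. Only 1 member could be tested there, and it was not called. Day 10 and day 12 against day 0, the 13 fell, where 95.2% and 96.2% of the 476 fell and 1.05% and 0.63% rose; with TMM factors 5 fell at each of these days, where 26.3% and 27.7% of the 476 did. At day 12 miR-467c-5p had 0.304, 0.673 and 0.139 RPM and kept 0.135% of day 0, and miR-467d-5p had 0.379, 0.404 and 0.971 RPM and kept 0.324%. MiR-669h-5p and miR-669e-5p had no read at day 12, at least 94.4-fold and at least 67.6-fold below day 0.

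There were 5 members with a read later and none at day 0. MiR-466m-5p, miR-467a-5p, miR-467e-3p and miR-669b-3p had 1 read each over the 15 libraries, and miR-669d-5p, which has 2 copies, had 17. MiR-669d-5p had 0 reads on day 0, 4 reads on day 4, 6 reads on day 8, 6 reads on day 10 and 1 read on day 12, in levels of up to 0.337 RPM in a library. These 5 are named after their values were seen. Such counts are at the limit of detection in most libraries, and none of the 5 was tested, because they did not pass the filter.

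The host transcript was read in the 4sU libraries at day 8, where no difference in Sfmbt2 between genotypes was detected beyond the spread of cultures. In labelled RNA its exonic level was 38.2 and 24.3 TPM in the 2 Dicer-depleted cultures, against 30.7 and 19.5 TPM in the 2 WT cultures (log2 difference 0.29 ± 0.39 SE, limma adjusted p = 0.785; 0.128% of 21821 genes passed). In preexisting RNA it was 43.0 and 21.3 TPM in Dicer-depleted cultures, against 29.1 and 22.1 TPM in WT cultures (log2 difference 0.25 ± 0.39, adjusted p = 0.801; 0.646% passed). Culture 1 was above culture 2 in both genotypes and both fractions. With 2 cultures a genotype, neither a rise nor a fall of the size seen between cultures could be told from 0.

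The cluster's hairpins are part of the intronic RNA of Sfmbt2, which the same libraries measured. In labelled RNA the introns of Sfmbt2 had 30.2 and 11.9 TPM in Dicer-depleted cultures, against 19.3 and 10.1 TPM in WT cultures (log2 difference 0.42 ± 0.50, limma adjusted p = 0.584; 4.23% of 12472 genes passed). In preexisting RNA they had 3.97 and 1.82 TPM in Dicer-depleted cultures, against 2.27 and 1.21 TPM in WT cultures (log2 difference 0.47 ± 0.50, adjusted p = 0.601; 0.016% passed). The TPM in labelled RNA was thus several times that in preexisting RNA in each culture. TPM are shares of a library, so the amounts of RNA were not compared. The introns of Dicer1 went the same way, with means of 2.985 TPM labelled against 0.357 TPM preexisting in Dicer-depleted cultures. In WT cultures these were 2.29 and 0.2245 TPM. Intronic values cover all introns of the gene and not the cluster's intron alone. The coding transcripts of Sfmbt2 include short ones that end before the cluster, and in a split made after the values were seen, the 2 that span it took 43.5 and 40.9% of exonic labelled signal in Dicer-depleted cultures, against 47.4 and 47.3% in WT cultures. In preexisting RNA they took 70.6 and 76.6% in Dicer-depleted cultures, against 69.4 and 69.2% in WT cultures. Of the intronic signal in labelled RNA, these 2 transcripts held 6.52 and 3.08 TPM in Dicer-depleted cultures, against 4.30 and 2.64 TPM in WT cultures. In preexisting RNA they held 1.46 and 0.817 TPM, against 0.850 and 0.498 TPM. The rest of the intronic signal lay on the other transcripts of Sfmbt2. These shares and levels are RSEM's division of reads among overlapping transcripts and were not tested.

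**Figure D5:**
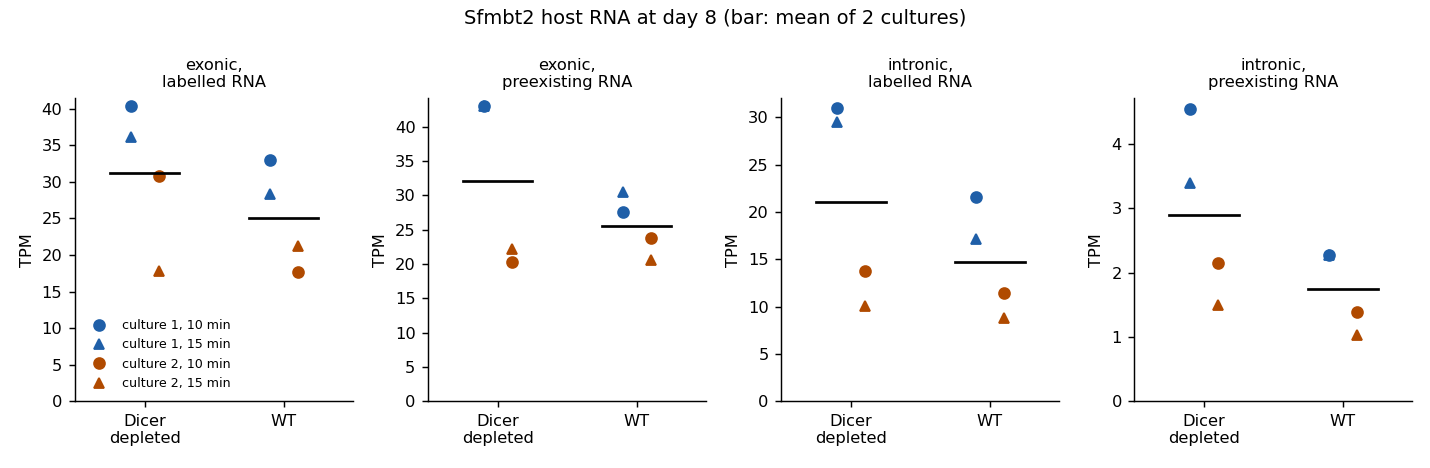
Sfmbt2 level in TPM in Dicer-depleted and WT cells at day 8, for exonic and intronic entries in labelled and preexisting RNA; colours mark the 2 cultures, symbols the minutes of labelling, and bars the mean of the 2 cultures. Culture 1 lies above culture 2 in every panel, and the genotypes overlap.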

How the data were processed

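Small RNA was measured in 15 libraries and 4sU RNA in 16. Per the labels' protocols, the authors removed adapters with cutadapt 1.8 from reads of 50 bases, aligned to mm10 with Bowtie2 and counted miRBase 21 entries with HTSeq. The deposited small RNA values are raw counts per mature locus; copies were summed here, and the lines for unassigned reads entered only the library totals. The deposited 4sU values are an RSEM signal, per the labels after removal of ribosomal reads with STAR 2.5.0; every column sums to 10000000, so 10 units were taken as 1 TPM and summed per gene (GENCODE M21). Their sequencing depth is unknown.

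Members were found through miRBase identifiers in the RefSeq annotation of GRCm38.p6. Counts were tested with edgeR 4.0.16 (filterByExpr by day, a minimum count of 10, no TMM factor) in 1 model of 15 libraries, and Sfmbt2 and Dicer1 with limma 3.58.1 (trend) on log2(TPM + 1), genes of at least 1 TPM on average. For each culture, log2 values at 10 and 15 minutes were averaged; averaging TPM before log2 was run first and is given as an alternative. The fits were tested on simulated data. Adjusted p-values are two-sided with a threshold of 0.05. They weigh a difference against the spread between libraries or cultures of a group. That spread was estimated over all groups of a fit and moderated across microRNAs or genes. Alternatives were DESeq2 1.42.0, other scalings and filters, a replicate block and leaving out libraries. Same-numbered libraries of days 10 and 12 deviated together (r = 0.398, 0.529 and 0.245). Those of days 8 and 10 did so less evenly (r = 0.289, 0.428 and 0.0961). Those of days 0 and 4 and of days 4 and 8 did not all do so. The main fit held no replicate term, so the results given for these steps are unpaired unless a replicate block is named. R 4.3.3 and Python 3.11.15 were used.

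Named were the 25 members highest at day 0, their other arms, any called higher, the 5 highest at day 12, Sfmbt2 and Dicer1. The members, lists and tests were chosen with earlier results of these data known.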

Additional observations from a re-analysis of the deposited data

How the results depend on the processing

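Direction held for the fall of the cluster under every setting tried, but its size depends on the scaling. Scaled to microRNA reads the cluster kept 61.4%, 27.7%, 14.1% and 9.91% at days 4, 8, 10 and 12, and with TMM-scaled counts 61.6%, 48.5%, 34.2% and 23.6%. Where no share of all microRNAs called is given here or above for a setting, that share was not counted. Member counts under such a setting do not set the members apart from other microRNAs. Members called lower on days 8, 10 and 12 against day 0 numbered 4, 5 and 5 with TMM factors and 5, 5 and 4 with DESeq2's own size factors; day 8 against day 4 they numbered 1 with either and 7 with total microRNA reads, and day 10 against day 8 they numbered 0 with either, 2 with total microRNA reads and 3 with only the libraries of those days. In 2 settings added after seeing the data, the filter followed microRNA totals and left 6 members: TMM factors then called 3, 3, 4 and 4 lower at days 4, 8, 10 and 12 against day 0, 1 at day 8 against day 4 and 0 at day 10 against day 8, and total microRNA reads called 3, 6, 6 and 6, and 6 at day 8 against day 4.

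At day 4 the log2 changes of miR-467e-5p, miR-669h-5p and miR-669e-3p were 0.077, 0.055 and 0.39 with TMM factors, 0.072, 0.047 and 0.39 with total microRNA reads, and 0.16, 0.13 and 0.47 with DESeq2's own size factors, none called. MiR-669e-3p was also above 0 at day 8 against day 0 (0.46 with TMM factors, 0.23 with DESeq2's own factors) and at day 8 against day 4 (0.075 with TMM factors). The cause was not tested. With at least 5 reads, 18, 15, 9, 5 and 2 members were seen at days 0, 4, 8, 10 and 12. MiR-297b-5p at day 4 was not called by DESeq2 with all reads (adjusted p = 0.185) or without a filter (0.0674), and miR-669e-3p at day 10 against day 8 not without a filter (0.0599).

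Leaving out 1 library, members called lower numbered 8 to 11 at day 4 against day 0 and 4 to 7 at day 10 against day 8, and the miR-669 group kept 36.5 to 40.5% at day 4. Without day 10 library 3, and with the filter run anew, members called lower numbered 4 at day 10 against day 8. They numbered 14 at day 10 against day 0 and 0 at day 12 against day 10. In the other day 10 libraries 10 members had a read. Same-numbered small RNA libraries had r over 0.1 in 13 of 30 pairs (r from -0.124 to 0.529). Between days 8, 10 and 12 each library correlated best with its own number (0.0961 to 0.529), a hint from the data that these days share a source of spread; libraries of days 0 and 4 did not follow their numbers. With the replicate block over all days the counts were 9, 13, 13, 13, 13, 6 and 0, as without it. With the block in a fit of days 10 and 12 alone, added after seeing the data, 69 of 140 microRNAs were called, but only 1 member could be tested and 0 were called (0 with an unadjusted p under 0.05).

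For 4sU RNA the log2 difference of Dicer1 in preexisting exonic RNA was no longer called without a filter (-2.29, adjusted p = 0.102), with 10 minute (-2.41, 0.135) or 15 minute libraries only (-2.17, 0.144), with only that fraction (-2.29, 0.44), or without 1 culture (-2.52 to -2.07). It was called with the replicate block (adjusted p = 0.0356) and when TPM were averaged before log2 (-2.26, 0.0353), a setting added after seeing the data that called 23 genes there in place of 141. Sfmbt2 was not called under any setting; leaving out a culture, its log2 difference ran from -0.052 to 0.62 (exonic labelled), -0.24 to 0.74 (exonic preexisting) and -0.23 to 1.06 (intronic labelled), below 0 without Dicer-depleted culture 1 (-0.052, -0.24 and -0.23) and, in labelled RNA, without WT culture 2 (-0.028 exonic, -0.016 intronic). With the block its adjusted p was 0.485, 0.509, 0.166 and 0.19. Dicer1 intronic signal centred on the median gene gave -0.010 (labelled) and -0.11 (preexisting).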
